A study of Mus musculus with 30 samples.

Results

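A set of 8 genes known as markers of the choroid plexus was followed through the hippocampal RNA of mice fed methylmercury (MeHg) with or without selenium. They are Ttr, Kl, Folr1, Clic6, Aqp1, Otx2, Enpp2 and Slc4a5, 8 of the 21412 genes in the deposited values, and each had a row. The genes were chosen from these same data, by their wide spread between mice and over the 6 treatment groups, so their levels, their spread and their differences between groups are descriptions and carry no test. Of the 46 other genes whose pattern across mice was closest to theirs, 23 were on a further list of choroid plexus markers. That list held 47 of the 14288 genes compared. It was made with earlier results of these data known, so the overlap is a description only.

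Hippocampi of 30 male BALB/c mice were sequenced, 5 in each of 6 groups of a factorial design of MeHg and selenium. Feed without added MeHg was given to Ctr mice, feed with 0.28 mg MeHg per kg to LD mice and feed with 5 mg per kg to HD mice, and the mice arrived at an age of 2 to 3 weeks and were fed these diets for 11 weeks. Se_Ctr, Se_LD and Se_HD mice are labelled as having had selenium with no, low dose or high dose mercury, and the amount of selenium, the feed and the duration for these 3 groups are not given in the sources used here. One library was made per mouse, and libraries are named here by group and by the library number in their label. Each library had 5768208 to 11510521 reads on genes. Of 12 marker genes of hippocampal neurons, such as Prox1 of the dentate gyrus, 0 were at 0 in any library, and their summed normalized count lay between 11009 and 19805. Ctr library 1 stood apart from the others in other genes: it held 3697 normalized counts of the growth hormone gene Gh, where the second highest library, Se_Ctr library 22, held 124 and 17 of 30 libraries held 0. The differences of the 8 genes from Ctr mice are given with and without it.

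The choroid plexus is a fringe of vessels and connective tissue under a single sheet of epithelium that hangs in the brain ventricles and makes most of the cerebrospinal fluid. In the lateral ventricle it is attached along the edge of the hippocampus. Its epithelium moves sodium, bicarbonate, chloride and water towards the fluid, carries vitamins and hormones across, and secretes proteins. The 8 genes cover these roles: Ttr encodes transthyretin, a carrier of thyroid hormone and of retinol-binding protein, Folr1 the folate receptor alpha, Aqp1 a water channel, Slc4a5 a sodium bicarbonate transporter, Clic6 a member of the chloride intracellular channel family, Kl the anti-ageing hormone and receptor partner klotho, Enpp2 the secreted enzyme autotaxin, and Otx2 a homeodomain transcription factor needed for the tissue to form. Enpp2 is also known from oligodendrocytes, the myelin-forming cells, which are part of the hippocampus itself.

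Promoter sequence from RefSeq was at hand for 4 of the 8 genes, Kl, Aqp1, Otx2 and Slc4a5, on the build GRCm38.p6, which is a later build than that of the counts. The 250 bases before the start of each of these 4 genes are shown, with the letters of 4 short motifs in capitals where they occur on either strand. Whether these sequences bear on the levels of the genes was not tested. The first, TAATCC, is the kind of site that OTX proteins are known to bind. The others are the CCAAT box, spelled by its name, the GC box with the letters GGGCGG, and the TATA box with the letters TATAAA. Otx2 has 4 starts in the table, and the one farthest upstream is shown.
Kl, chr5:150952357-150952606, plus strand: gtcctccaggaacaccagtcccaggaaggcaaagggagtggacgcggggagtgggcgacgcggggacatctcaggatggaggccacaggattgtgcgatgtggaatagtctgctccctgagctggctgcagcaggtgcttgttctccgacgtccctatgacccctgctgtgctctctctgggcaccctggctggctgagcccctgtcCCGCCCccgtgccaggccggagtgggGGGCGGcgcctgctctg
Aqp1, chr6:55336049-55336298, plus strand: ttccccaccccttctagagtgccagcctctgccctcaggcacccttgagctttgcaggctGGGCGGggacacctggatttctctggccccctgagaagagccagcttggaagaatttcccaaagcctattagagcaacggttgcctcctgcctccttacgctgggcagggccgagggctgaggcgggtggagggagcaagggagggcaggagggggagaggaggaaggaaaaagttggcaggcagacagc
Slc4a5, chr6:83237125-83237374, plus strand: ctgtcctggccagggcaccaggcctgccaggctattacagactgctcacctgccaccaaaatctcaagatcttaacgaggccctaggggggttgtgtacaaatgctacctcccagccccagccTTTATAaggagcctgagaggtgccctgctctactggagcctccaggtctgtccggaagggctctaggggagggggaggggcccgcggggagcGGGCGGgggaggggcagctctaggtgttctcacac
Otx2, chr14:48667645-48667894, minus strand: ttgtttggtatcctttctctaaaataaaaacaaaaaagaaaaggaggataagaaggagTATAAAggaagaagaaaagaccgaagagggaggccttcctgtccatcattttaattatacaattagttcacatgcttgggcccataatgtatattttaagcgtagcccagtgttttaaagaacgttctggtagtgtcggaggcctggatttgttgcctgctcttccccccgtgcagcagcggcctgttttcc
None of the 4 motifs occurred in all 4 of these windows. The GC box letters occurred at 43 and 17 bases before the start of Kl, 190 bases before that of Aqp1 and 35 bases before that of Slc4a5, counted from the first letter, and 32.74% of the 32851 windows of the same length in the table hold them. The TATA box letters lay 127 bases before the start of Slc4a5 and 192 before that of Otx2, against 12.37% of all windows. TAATCC was in 0 of the 4 windows shown, while 6.25% of all windows hold it. It occurred once in another window of Otx2, 211 bases before start 2, with the 4 starts numbered by rising position on the chromosome. By this count the start shown, farthest upstream on the minus strand, is start 4. CCAAT, held by 33.85% of windows, occurred once, 70 bases before start 3 of Otx2. These matches describe letters only.

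Ttr (ENSMUSG00000061808, chromosome 18 from 20823751 to 20832825 on the plus strand of NCBIM37) had by far the highest level of the 8 genes. Its mean over the 30 libraries was 16117 normalized counts, or 13222 per kilobase of exon, and Enpp2 followed with 2469 per kilobase. Clic6 and Kl had 139 and 136 per kilobase, Folr1 73.8, Aqp1 56.5, Slc4a5 26.3 and Otx2 20.0. A normalized count is the number of reads on the gene divided by a size factor of the library, made by the authors. In the median library Ttr took 0.186% of all reads on genes and stood at place 29 by reads, and it went from place 12 in Se_LD library 29 to place 9142 in Se_LD library 5. A gene annotated on the opposite strand, Gm16090, overlaps Ttr, and since the sources used here do not state whether strand was used in counting, reads of the pair cannot be told apart.

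In Ctr mice the normalized counts of Ttr were 545 in library 1, 28515 in library 7, 13334 in library 13, 9727 in library 19 and 1869 in library 25. In LD mice they were 27998 in library 2, 7872 in library 8, 25093 in library 14, 11290 in library 20 and 353 in library 26. In HD mice they were 24371 in library 3, 6424 in library 9, 25789 in library 15, 17235 in library 21 and 26739 in library 27. Mice on one and the same diet thus differed by more than an order of size in Ctr and LD, while the lowest HD mouse was within a few fold of the highest. In Se_Ctr mice Ttr had 19164 in library 4, 11638 in library 10, 16084 in library 16, 13022 in library 22 and 5226 in library 28. In Se_LD mice it had 96.3 in library 5, 21101 in library 11, 23941 in library 17, 718 in library 23 and 34026 in library 29. In Se_HD mice it had 8379 in library 6, 15739 in library 12, 30674 in library 18, 30714 in library 24 and 25837 in library 30. The Se_LD group thus held both the lowest and the highest library of all 30, a ratio of 353 with a counting interval (95%, exact) from 292 to 433.

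**Figure D1:**
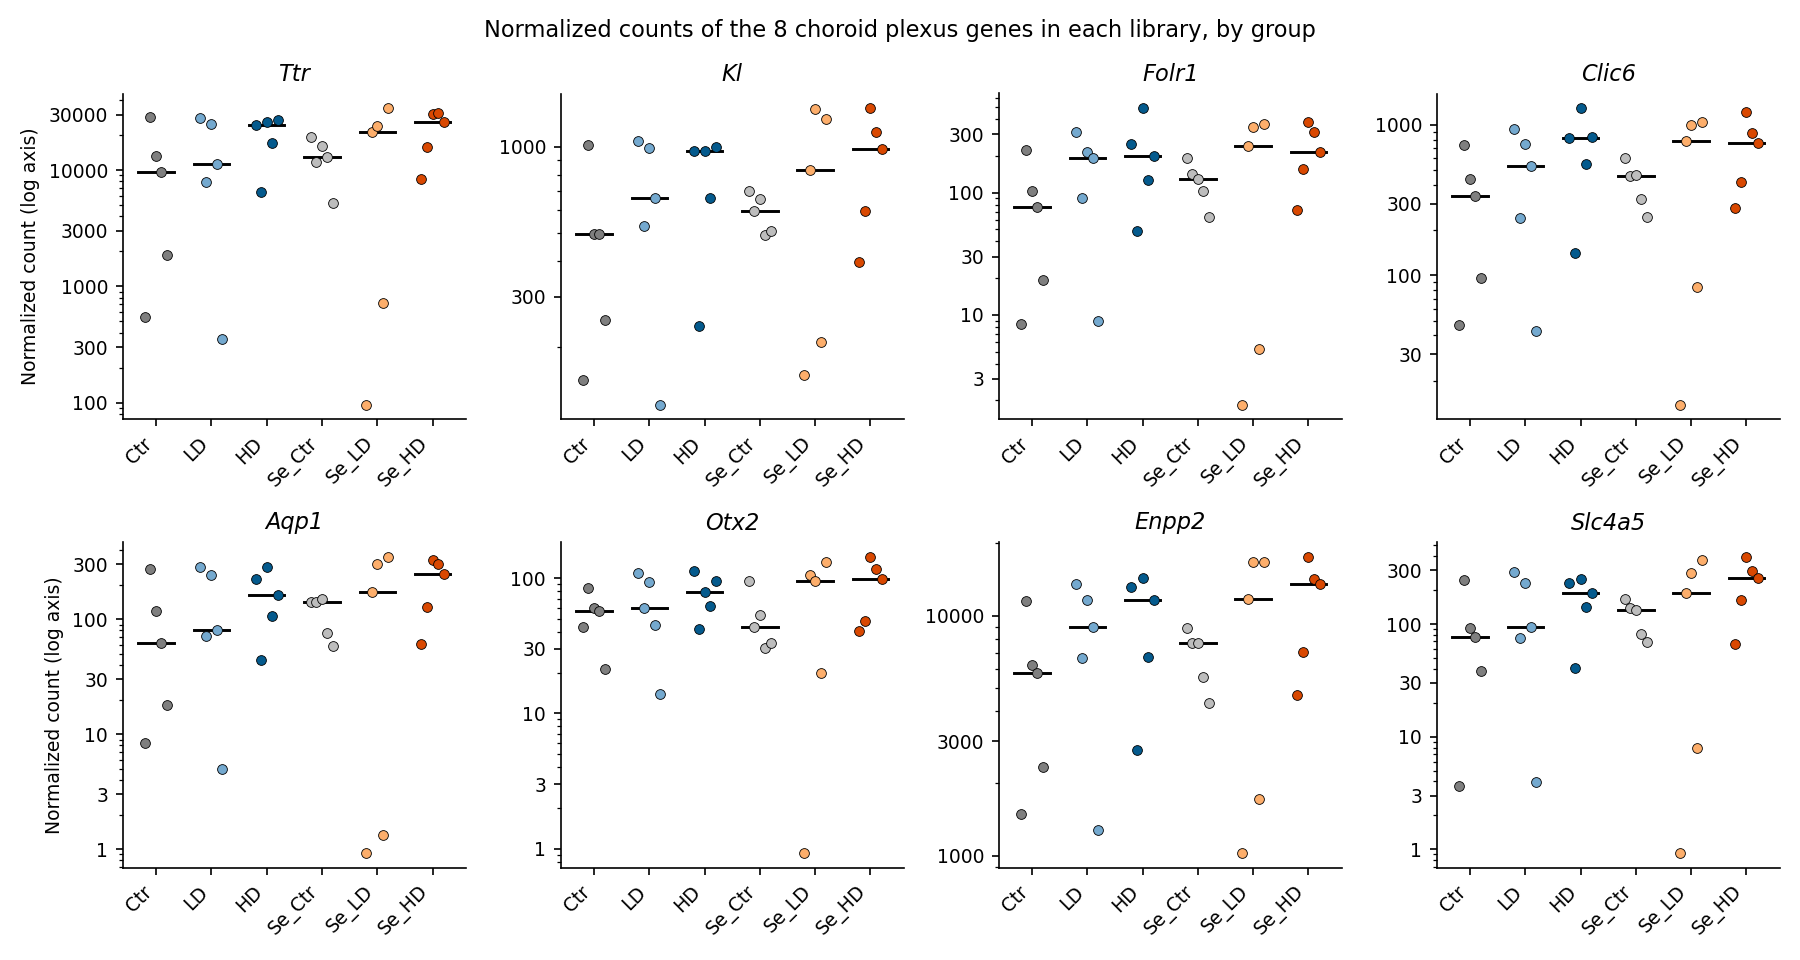
Normalized counts of the 8 choroid plexus genes (log axis) in each of the 30 libraries, 5 per group, with the group median as a bar. In every panel the groups overlap, and a few libraries of Ctr, LD and Se_LD lie far below the rest, down to 96.3 for Ttr and 0.926 for Aqp1, Otx2 and Slc4a5.

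Low Ttr was found in 5 libraries with at most 1869 normalized counts, namely Se_LD library 5, LD library 26, Ctr library 1, Se_LD library 23 and Ctr library 25, and the next library, Se_Ctr library 28, had 5226. The same 5 libraries were the 5 lowest for 6 of the 8 genes. For Kl, HD library 9 with 237 took the place of Ctr library 25 with 249, and for Otx2 Ctr library 1 was not among them. Se_LD library 5 was the lowest of all for 7 of the 8 genes, and for Kl it was LD library 26. Their reads on genes lay between 6559334 and 9600570, within the range of all libraries. Across all mice the mean of the 8 genes moved little with depth (r = 0.178, Spearman's rho = 0.216, and r = 0.118 without the 2 libraries farthest from the median depth, n = 30, group-centred log2 values). In bulk RNA, fewer choroid plexus cells in a sample and less RNA per cell cannot be told apart.

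The water channel Aqp1 (ENSMUSG00000004655, chromosome 6 from 55286426 to 55298549) and the bicarbonate transporter Slc4a5 (ENSMUSG00000068323, chromosome 6 from 83169822 to 83254939) nearly vanished in the low libraries. Aqp1 had 1 read in Se_LD library 5 and 1 in Se_LD library 23, 5 in LD library 26 and 7 in Ctr library 1, against 473 in Se_LD library 29. Slc4a5 had 1 read in Se_LD library 5, 6 in Se_LD library 23, 3 in Ctr library 1 and 4 in LD library 26, against 435 in Se_HD library 18, which had its highest normalized count. The ratio of the highest to the lowest normalized count was 378 for Aqp1 (95% counting interval 67.4 to 14943) and 427 for Slc4a5 (76.2 to 16890), intervals that are wide because the lowest value is a single read. Ctr library 25 had 18.0 normalized counts of Aqp1 and 38.3 of Slc4a5, and the 25 libraries above it lay between 44.2 and 349 for Aqp1 and between 40.8 and 395 for Slc4a5.

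Folr1 (ENSMUSG00000001827, chromosome 7 from 109006845 to 109019302), the receptor that takes folate up from the blood side, had 2 reads in Se_LD library 5 and 364 in HD library 15, a ratio of 264 (95% counting interval 72.7 to 2192). Its highest value, 490 normalized counts in HD library 15, was not matched by Ttr, which had 25789 in that library, near its values in HD libraries 3 and 27. Clic6 (ENSMUSG00000022949, chromosome 16 from 92485981 to 92541488) was also highest in HD library 15, with 1290 normalized counts, and lowest in Se_LD library 5 with 13.9, a ratio of 92.9 (56.0 to 167). The gene 2410124H12Rik overlaps Clic6 on the same strand, so reads in the shared part may be assigned to either gene or to neither.

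Klotho and autotaxin had the narrowest ranges from the lowest to the highest library. Kl (ENSMUSG00000058488, chromosome 5 from 151755182 to 151796384) ranged from 127 normalized counts in LD library 26 to 1361 in Se_HD library 18, a ratio of 10.8 (95% counting interval 8.97 to 13.0). Enpp2 (ENSMUSG00000022425, chromosome 15 from 54670453 to 54751701) ranged from 1027 in Se_LD library 5 to 17554 in Se_HD library 18, a ratio of 17.1 (16.1 to 18.2). Each gene's lowest library held 19.2% of the median over 30 libraries for Kl and 13.4% for Enpp2. It held 2.76% of the median for Clic6 and 0.605% for Ttr, and between these were Otx2 with 1.55%, Folr1 with 1.25%, Aqp1 with 0.691% and Slc4a5 with 0.659%.

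The transcription factor Otx2 (ENSMUSG00000021848, chromosome 14 from 49277354 to 49287319) was the least abundant and followed the others least closely. In Ctr mice its normalized counts were 43.5 in library 1, 84.4 in library 7, 59.6 in library 13, 56.7 in library 19 and 21.4 in library 25. Library 1, the lowest Ctr mouse for the other 7 genes, with 8.45 for Aqp1 and for Folr1 and 3.62 for Slc4a5, was the second lowest for Otx2. In LD mice Otx2 had 110 in library 2, 59.7 in library 8, 93.1 in library 14, 45.1 in library 20 and 13.8 in library 26. In Se_LD mice it had 0.926, from 1 read, in library 5, 106 in library 11, 95.4 in library 17, 19.8 in library 23 and 132 in library 29. The HD mice lay between 41.7 and 113, the Se_Ctr mice between 30.5 and 95.1 and the Se_HD mice between 40.4 and 143.

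The spread between mice of the same group was among the widest of all genes, which is how the genes were chosen. The SD between mice of one group, on log2 of the normalized count plus 1, was 2.16 for Ttr, 2.09 for Aqp1, 2.01 for Slc4a5, 1.91 for Folr1, 1.63 for Clic6, 1.28 for Otx2, 1.21 for Enpp2 and 1.01 for Kl. The median was 0.22 over the 14296 genes whose mean normalized count reached 10. By this SD Ttr stood at place 2, Aqp1 at 3, Slc4a5 at 5, Folr1 at 9, Clic6 at 18, Otx2 at 37, Enpp2 at 50 and Kl at 113. Differences between the 6 groups made up 11.1% (Kl and Otx2) to 16.5% (Ttr) of each gene's sum of squares, and the median of all genes, 15.6%, was much the same. Spread differed between the groups as well: the coefficient of variation of Ttr was 104% in Ctr and 93.9% in Se_LD, 80.7% in LD, and 40.2% in Se_Ctr, 42.3% in HD and 44.4% in Se_HD.

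**Figure D2:**
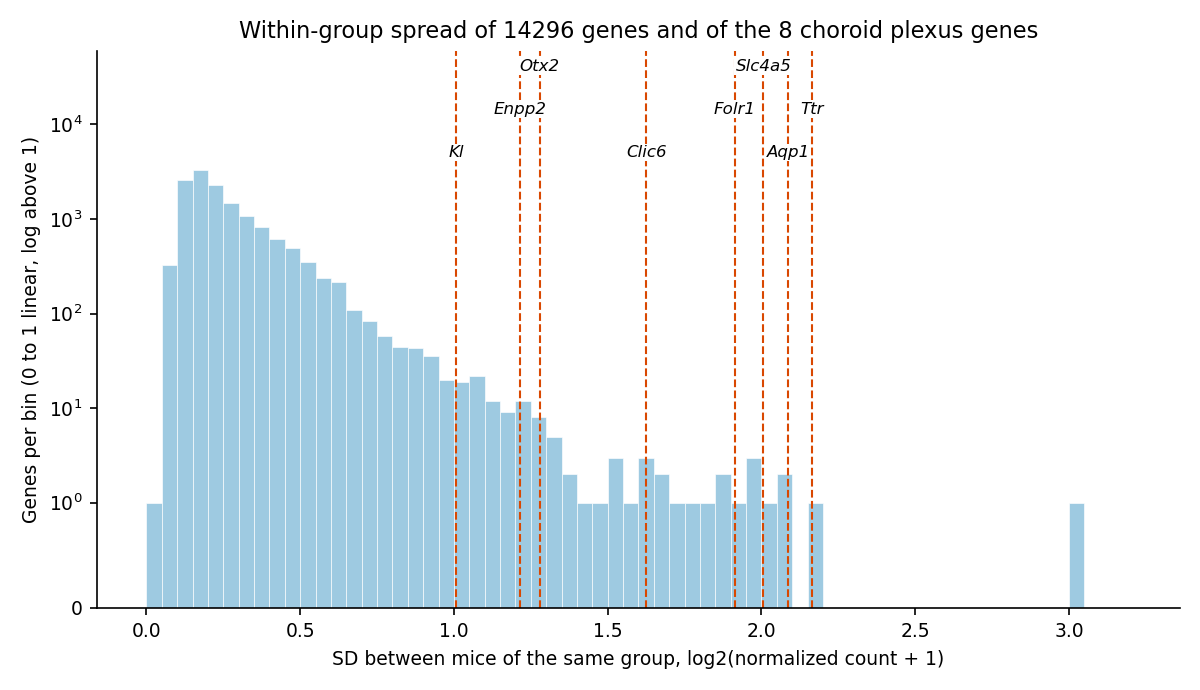
Number of genes (vertical axis, logarithmic above 1) by the SD between mice of the same group (horizontal axis, log2 of normalized count plus 1) for 14296 genes, with the 8 choroid plexus genes as dashed lines. The genes lie in the thin right tail, from 1.01 for Kl to 2.16 for Ttr, against a median of 0.22, and the bar near 3 is Gh.

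Group medians came in the same full order for Ttr and Slc4a5 alone, and the other 6 genes differed from it in part. For Ttr the group medians were 25837 in Se_HD, 24371 in HD, 21101 in Se_LD, 13022 in Se_Ctr, 11290 in LD and 9727 in Ctr mice, and as mean ± SD (n = 5) the levels were 22269 ± 9878 in Se_HD, 20112 ± 8514 in HD, 15977 ± 15004 in Se_LD, 14521 ± 11713 in LD, 13027 ± 5239 in Se_Ctr and 10798 ± 11251 in Ctr mice. For all 8 genes the medians of Se_HD, HD and Se_LD were the top 3, and the median of Ctr was the lowest for 7 genes, with Se_Ctr lowest for Otx2. For each of the 8 genes the ranges of every pair of groups overlapped. How often this holds over all genes was not computed, so the overlap is a description only.

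From mouse to mouse the 8 genes rose and fell together. On log2 values with each group's mean removed, Pearson's r with Ttr over the 30 libraries was 0.984 for Slc4a5, 0.978 for Clic6, 0.975 for Folr1, 0.968 for Aqp1, 0.964 for Enpp2, 0.943 for Kl and 0.895 for Otx2, and Spearman's rho lay between 0.904 and 0.975. No p is given, since the genes had been picked for their spread in these same libraries. Without the 2 libraries farthest from the median of Ttr, r lay between 0.830 for Otx2 and 0.974 for Slc4a5. The 5 libraries lowest in Ttr stand away from the other 25, and over those 25 alone r was between 0.838 for Otx2 and 0.950 for Slc4a5, an alternative added after the data were seen. Within the 15 libraries without selenium r was between 0.858 and 0.981, within the 15 with selenium between 0.936 and 0.989, and with the sets of 6 consecutive library numbers also centred between 0.891 and 0.985. Each library set holds 1 mouse of each group.

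Among all 28 pairs of the 8 genes the median r was 0.966. The closest pair was Kl and Enpp2 (0.988), and the loosest was Kl and Otx2 (0.838). Each gene was also set against the mean of the other 7, and r was highest for Folr1 (0.988), Clic6 (0.987) and Enpp2 (0.986) and lowest for Otx2 (0.890).

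**Figure D3:**
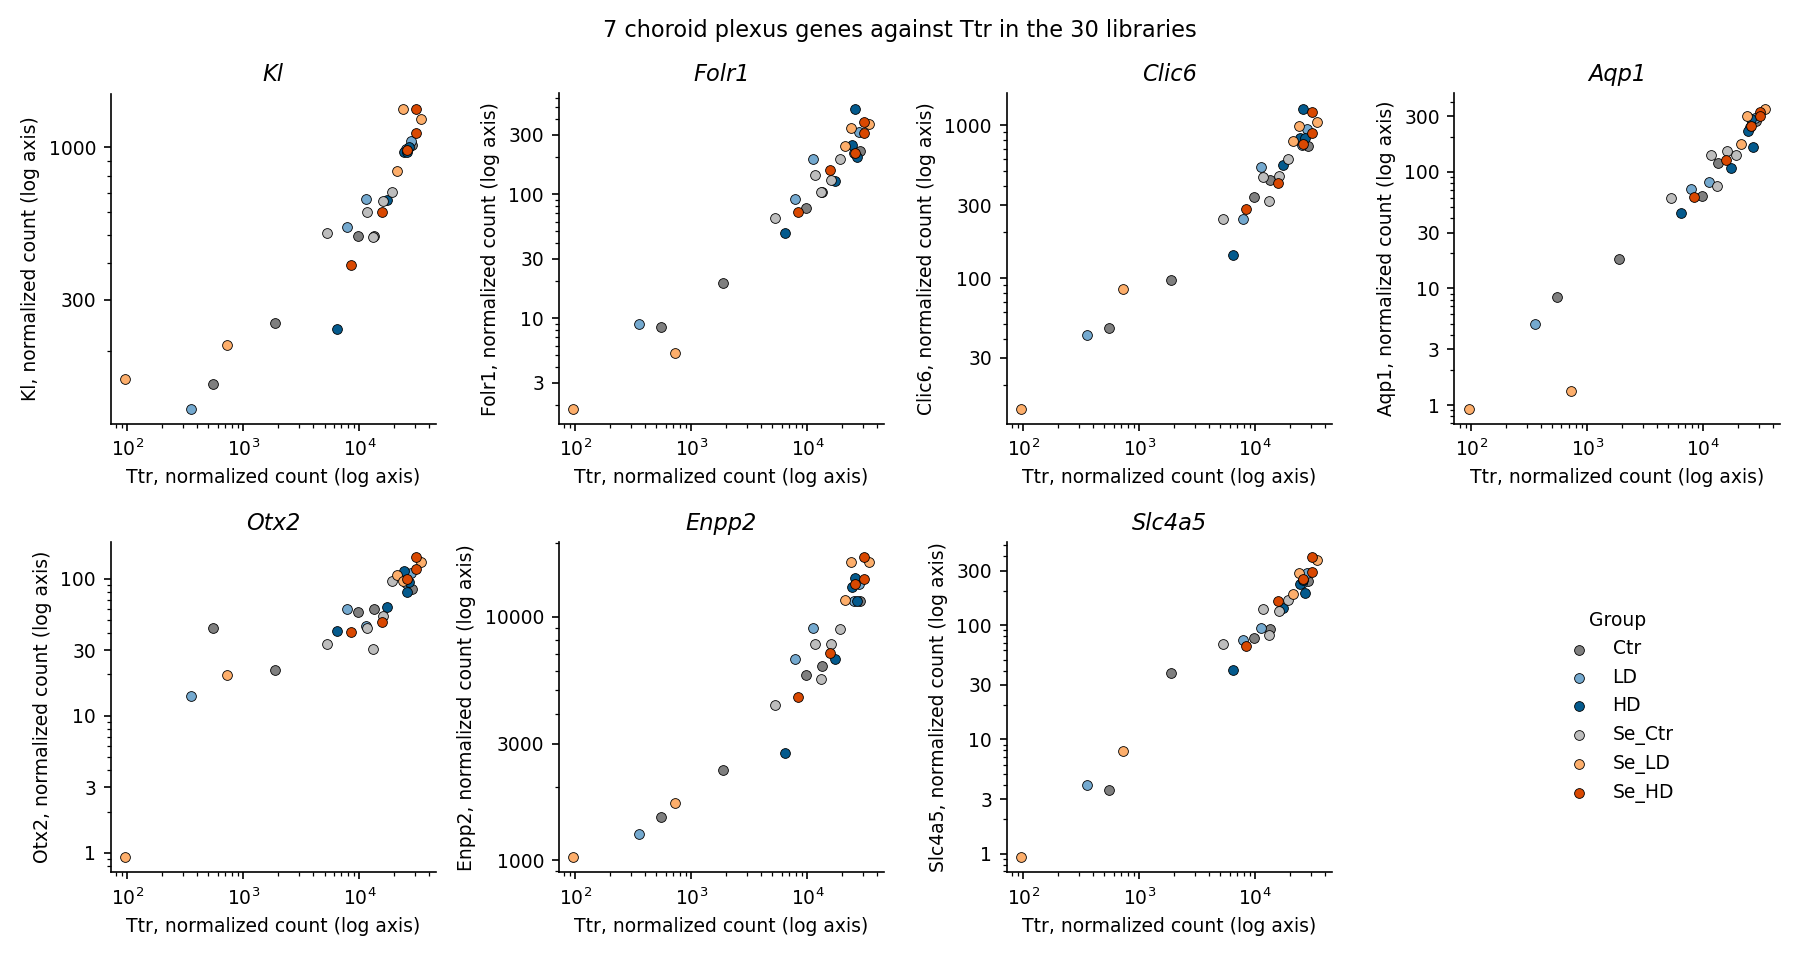
Normalized counts of 7 choroid plexus genes (vertical, log axis) against Ttr (horizontal, log axis) in the 30 libraries, coloured by group. Libraries of all groups lie along one band per gene. Kl and Enpp2 flatten at low Ttr, at 127 to 249 and at 1027 to 2351 in the 5 libraries lowest in Ttr. Ctr library 1 lies above the band of Otx2, at 43.5.

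Of the 14288 other genes whose mean normalized count reached 10, 46 had r above 0.9 with the mean of the 8 genes, and the median r over all was -0.01. This measure is Pearson's r of group-centred log2 values over 30 libraries, given as a description. The 15 genes most like the 8 were Mfrp (0.989), Cldn2 (0.988), F5 (0.986), Tmem72 (0.983), Sostdc1 (0.982), Kcne2 (0.981), Trpv4 (0.979), Lbp (0.978), Tmprss11a (0.977), Slc2a12 (0.975), 1500015O10Rik (0.973), Ccdc135 (0.972), Igf2 (0.970), Ace (0.969) and Abca4 (0.968). Among them Cldn2 encodes a tight junction protein, F5 coagulation factor V, Sostdc1 a secreted antagonist of BMP and Wnt signals, Kcne2 a potassium channel subunit, Trpv4 a calcium-permeable channel, Slc2a12 a sugar transporter, Igf2 insulin-like growth factor 2 and Ace angiotensin-converting enzyme. Of these 15, 11 were in the list of other choroid plexus markers, and Mfrp, Lbp, Tmprss11a and Abca4 were not. Sostdc1, Tmem72 and Tmprss11a went down to 0 normalized counts in the lowest library and up to 672, 152 and 63.6. At the other end r was lowest for Kti12 (-0.69), Dtx4 (-0.66), Smad1 (-0.65), Dner (-0.64) and Tspan12 (-0.62). Their levels moved within narrow ranges, from 24.2 to 54.0 normalized counts for Kti12 and from 991 to 1676 for Dner.

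The list of other choroid plexus markers held 50 genes, of which 49 had a row and 47 reached a mean normalized count of 10. Of those 47, 23 had r above 0.9 with the mean of the 8 genes and 46 had r above 0.5, the median was 0.894, and Slc26a11, an anion transporter, was the exception at -0.13. Loosest after it were Bmp7 (0.511) and Slc5a5 (0.516), the iodide transporter gene. The width of the swings differed within the list. Slc12a2, the sodium, potassium and chloride cotransporter, had an r of 0.858 but only ranged from 644 to 1320 normalized counts, with an SD within groups of 0.26. Igf2, the most abundant gene of the list with a mean of 3340, ranged from 570 to 5930, and Prlr, the prolactin receptor gene, from 38.0 to 654. Htr2c, the serotonin 2C receptor gene, ranged from 287 to 1381, and Car12, a membrane carbonic anhydrase gene, from 240.3 to 1343. Of the 49 genes, 7 were at 0 in at least 1 library, namely Kcnj13, Sostdc1, Tmem72, Cox8b, Lmx1a, Krt8 and Slco1a5.

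Markers of other cells that a hippocampal sample could hold were set beside the mean of the 8 genes as list means, with no test, since the 8 genes had been selected. A list mean was taken over the genes whose mean normalized count reached 10. These were 47 of 49 other choroid plexus, 14 of 16 ependymal and 10 of 11 striatal genes, and all genes of the remaining lists. The mean of the other choroid plexus markers followed the 8 genes most closely (r = 0.992, rho = 0.984). Genes of ependymal cells, the ciliated lining of the ventricles, came next (r = 0.823, rho = 0.855). The summed normalized count of all 16 ependymal genes ranged from 237 in Ctr to 985 in Se_LD mice, with medians of 459 in Ctr, 637 in LD, 789 in HD, 499 in Se_Ctr, 709 in Se_LD and 705 in Se_HD mice. For 8 oligodendrocyte genes r was 0.516, but it was 0.127 in the 15 libraries without selenium and 0.724 in those with it. Their summed count was high in all groups, from 29382 in HD to 61475 in Se_HD mice. For the remaining lists r was 0.183 for endothelium, 0.152 for striatum, 0.126 for hippocampus, 0.099 for meninges and fibroblasts, 0.054 for thalamus and -0.02 for blood. For thalamus r was -0.53 without and 0.501 with selenium, and for striatum -0.38 and 0.428. Of these lists, only striatum had a gene at 0 in some library, Gpr6. The part of ependymal and oligodendrocyte RNA in the results for the 8 genes was not tested.

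**Figure D4:**
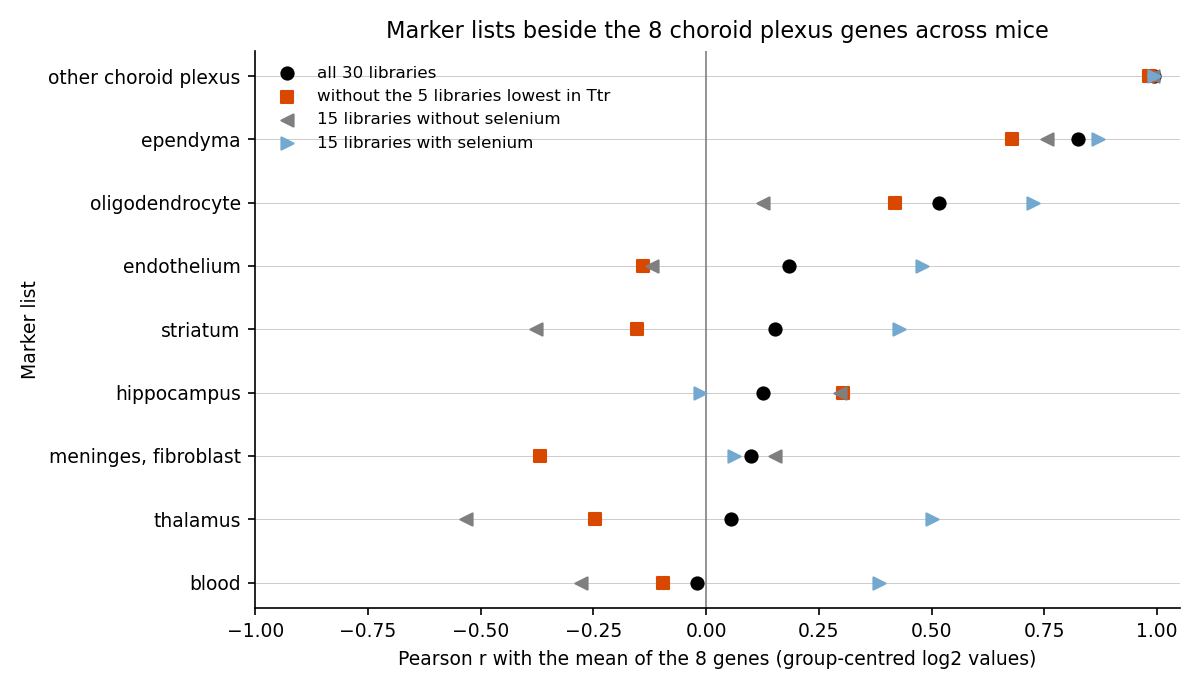
Pearson's r (horizontal axis) between the mean of the 8 choroid plexus genes and the mean of each marker list (vertical axis), on group-centred log2 values, over 30 libraries, over 25 libraries without the 5 lowest in Ttr, and within the 15 libraries of each diet. The other choroid plexus markers lie near 1 in all 4 cases and ependyma between 0.677 and 0.869, whereas thalamus runs from -0.53 to 0.501.

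A principal component analysis of the group-centred log2 values gave a first component with 13.7% of the variance within groups, and its r with the mean of the 8 genes was 0.936 in size. For the next 4 components, with 12.3% to 6.20% of the variance, r was at most 0.151 in size. The 8 genes and the other choroid plexus markers were among the genes analysed, and values were not scaled, so genes of wide spread weigh most. Since the 8 were picked for wide spread, the r of the first component is partly built in and is a description only. 

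Differences between groups in the other choroid plexus markers were examined with limma's moderated test over all genes. For the 8 genes the differences are given with their standard errors (SE) alone. The other markers were listed with earlier results of these data known, and their mean followed that of the 8 genes at an r of 0.992. Counts of other markers that pass a threshold are thus no independent test of a mercury effect on the 8 genes. In HD against Ctr mice, the log2 difference was 1.79 for Ttr (SE 1.00), 1.76 for Folr1 (SE 0.84), 1.54 for Slc4a5 (SE 0.94), 1.42 for Aqp1 (SE 0.89), 1.41 for Clic6 (SE 0.76), 0.96 for Enpp2 (SE 0.58), 0.78 for Kl (SE 0.52) and 0.60 for Otx2 (SE 0.43), with a median of 1.42. The median over the 20031 genes tested was 0.01. All 8 were higher in HD mice on this scale. The comparisons of HD and LD mice share the 5 Ctr mice, 2 of which were among the lowest 5 libraries. Without Ctr library 1 the difference of Ttr was 0.98 and that of Folr1 1.15, and the other 6 lay between 0.44 for Kl and 0.86 for Clic6. With it but without Ctr library 7, the highest Ctr mouse, Ttr had 2.40 and Folr1 2.29. The difference of Otx2 was 0.31 without Ctr library 25, its lowest Ctr mouse. By edgeR, on the scale of counts, Ttr had 0.90 and Folr1 1.36.

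Of the 49 other choroid plexus markers, 0 had a limma adjusted p (Benjamini-Hochberg, all genes tested) under 0.05 in HD against Ctr mice, where 0.13% of all genes did, and the lowest adjusted p was 0.206, for Vat1l. In edgeR and DESeq2 the count was 0 as well. At an unadjusted p under 0.05 there were 13, or 26.5% of the list, all of them higher in HD mice, against 8.34% of all genes tested. By edgeR 9 and by DESeq2 6 genes passed the same threshold, against 8.66% and 7.91% of all genes. At an adjusted p edgeR called 0.225% and DESeq2 0.978% of all genes. The log2 difference was above 0 for 47 of the 49 genes, with a median of 0.67. Of the 10 most abundant genes of the list, 4 were among the 13: Prlr with a log2 difference of 1.34 (SE 0.63), Car12 with 0.72 (SE 0.28), Vat1l with 0.59 (SE 0.17) and Slc31a1, a copper transporter gene, with 0.41 (SE 0.17). Igf2 had 0.61 (SE 0.39), Htr2c 0.59 (SE 0.29), Slc4a2, an anion exchanger gene, 0.52 (SE 0.26), Trpm3, a cation channel gene, 0.34 (SE 0.31), Cab39l 0.26 (SE 0.20) and Slc12a2 0.07 (SE 0.14), and none of these 6 passed. At an unadjusted p under 0.05 in the same contrast, 8 of 16 ependymal, 3 of 11 striatal and 1 of 12 thalamic markers were higher in HD mice and 1 of 12 hippocampal ones was lower, 0 of them at an adjusted p under 0.05. Their part in the result was not tested.

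The count of 13 depended on the fit and on single mice. It was 4 in limma without the intensity trend. With the trend it was 4 without Ctr library 1 and 4 without Ctr library 25, the Ctr mice lowest in Ttr, and 31 without Ctr library 7. Leaving out an HD mouse gave 6 to 8 for libraries 3, 15, 21 and 27 and 27 for HD library 9, the HD mouse lowest in Ttr, and leaving out LD library 26 gave 21. The median log2 difference of the list was 0.49 without Ctr library 1, 0.47 without Ctr library 25 and 0.93 without Ctr library 7.

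In LD against Ctr mice the log2 difference was 1.02 for Folr1 (SE 0.84), 0.51 for Ttr (SE 1.00) and 0.11 for Otx2 (SE 0.43), and the other 5 lay between 0.45 and 0.61, with a median of 0.56 over the 8 genes. Without Ctr library 1 the differences of the 8 genes lay between -0.30 for Ttr and 0.41 for Folr1, with those of Slc4a5 (-0.28) and Aqp1 (-0.07) also below 0. Without LD library 26 the differences of the 8 genes lay between 0.57 for Otx2 and 1.87 for Folr1, with 1.61 for Ttr. The difference of Ttr was 1.12 without Ctr library 7. Of the other markers, 0 of 49 passed at an adjusted and 0 at an unadjusted p under 0.05 in limma, edgeR and DESeq2, where limma called 0% and 3.01% of all genes, edgeR 0% and 2.77% and DESeq2 0% and 1.98%. Their median log2 difference was 0.30, and 41 of 49 were above 0. This median was 0.08 without Ctr library 1, 0.19 without Ctr library 25, 0.45 without Ctr library 7, 0.15 without LD library 2, 0.18 without LD library 14 and 0.54 without LD library 26. Without LD library 26 the unadjusted count was 12 and without Ctr library 7 it was 5. Of 12 thalamus markers 4 were higher in LD mice at an unadjusted p under 0.05, as were 3 of 16 ependymal, 1 of 8 endothelial and 1 of 12 hippocampal ones, whereas 2 of 10 meningeal and 1 of 5 blood markers were lower. Their part was not tested.

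The Se_LD contrast depended on the scale. The group median of Ttr in Se_LD mice (21101) was above that of Se_Ctr mice (13022), and so was the mean (15977 against 13027), but the mean of the log2 values was lower: the log2 difference was -1.53 (SE 1.10). The same holds for the other 7 genes, whose arithmetic means were higher in Se_LD mice and whose log2 differences were -1.48 for Aqp1 (SE 1.12), -1.14 for Slc4a5 (SE 1.01), -1.09 for Folr1 (SE 1.01), -0.66 for Clic6 (SE 0.81), -0.44 for Otx2 (SE 0.78), -0.22 for Enpp2 (SE 0.60) and -0.11 for Kl (SE 0.46). In edgeR, which models counts on their own scale, all 8 differences were positive, between 0.30 for Ttr and 0.65 for Folr1. Without Se_LD library 5 the limma differences turned positive for Otx2 (0.61), Enpp2 (0.39), Clic6 (0.37), Kl (0.33) and Slc4a5 (0.04) and were -0.41 for Aqp1, -0.18 for Ttr and -0.02 for Folr1. Of the 49 other markers, 0 passed at an adjusted p under 0.05 and 0 at an unadjusted p in limma, edgeR and DESeq2, where limma called 0% and 3.31% of all genes, edgeR 0% and 3.45% and DESeq2 0% and 2.49%. Their median was -0.08 in limma and 0.34 in edgeR, and in limma 0.30 without Se_LD library 5, 0.13 without Se_LD library 23, 0.05 without Se_Ctr library 4 and -0.39 without Se_LD library 29. Of the 12 thalamus markers 6 and of 8 endothelial ones 1 were higher in Se_LD mice at an unadjusted p under 0.05, and their part was not tested.

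In Se_HD against Se_Ctr mice all 8 genes were higher, with log2 differences between 0.47 for Kl (SE 0.46) and 0.84 for Slc4a5 (SE 1.01), 0.74 for Ttr (SE 1.10) and a median of 0.73. The difference of Ttr was 0.45 without Se_Ctr library 28 and 1.06 without Se_HD library 6, and that of Kl was 0.29 without Se_HD library 18 and 0.73 without Se_HD library 6. Of the other markers 48 of 49 had a log2 difference above 0, with a median of 0.60. At an unadjusted limma p under 0.05 there were 8 (16.3%), all higher, against 4.19% of all genes, with 12 in edgeR, against 4.26%, and 7 in DESeq2, against 3.14%. At an adjusted p 0 of 49 passed in any of the 3 tools, where limma and edgeR called 0% and DESeq2 0.0203% of all genes. Igf2, with 0.94 (SE 0.44), and Htr2c, with 0.62 (SE 0.29), were the 2 of the 10 most abundant genes among the 8. The count was 1 in limma without the intensity trend. With the trend it was 0 without Se_HD library 30, 4 without Se_HD library 24, 5 without Se_HD library 18, 5 without Se_Ctr library 10, 2 without Se_Ctr library 22 and 1 without Se_Ctr library 28, and it was 14 without Se_LD library 5, which enters this contrast through the shared estimate of spread alone. Markers of meninges and fibroblasts were higher in Se_HD mice too, with 7 of 10 at an unadjusted p under 0.05 and a summed count of 751 to 2715 in Se_HD against 550.2 to 1157 in Se_Ctr mice, as was 1 of 8 endothelial markers, and their part in this result was not tested.

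**Figure D5:**
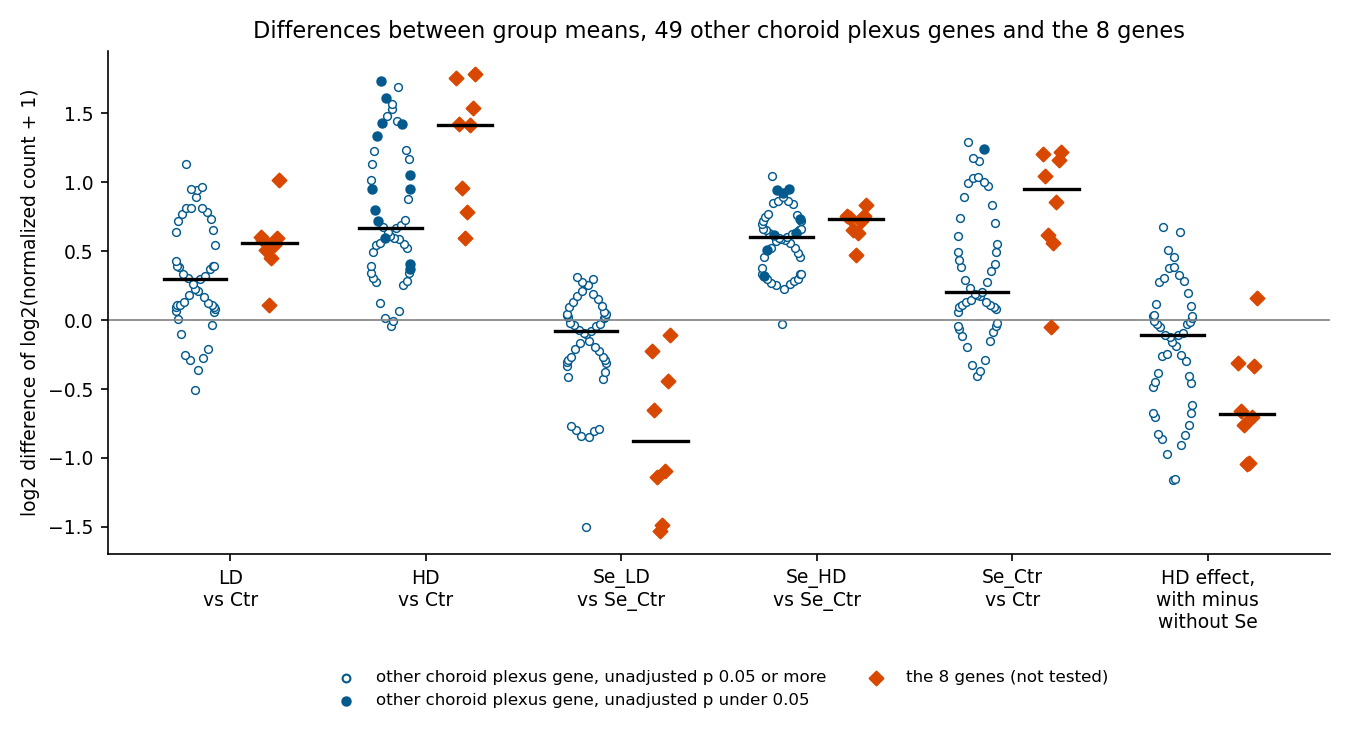
Log2 differences between group means (vertical axis, log2 of normalized count plus 1) for 49 other choroid plexus markers (circles, filled at an unadjusted limma p under 0.05) and for the 8 genes (diamonds, not tested) in 6 comparisons, with medians as bars. Of the other markers, 47 of 49 lie above 0 in HD against Ctr and 48 of 49 in Se_HD against Se_Ctr, and 19 of 49 do in Se_LD against Se_Ctr.

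Selenium without mercury was examined by setting Se_Ctr against Ctr mice in a fit of all 30 libraries. Here 7 of the 8 genes were higher in Se_Ctr mice, with log2 differences of 1.22 for Folr1 (SE 1.03), 1.20 for Ttr (SE 1.17), 1.16 for Slc4a5 (SE 1.08), 1.04 for Aqp1 (SE 1.13), 0.86 for Clic6 (SE 0.88), 0.62 for Enpp2 (SE 0.66) and 0.56 for Kl (SE 0.55), and that of Otx2 was -0.05 (SE 0.70). Of the other markers 0 of 49 passed an adjusted p, where 0% of all genes did, and 1 passed an unadjusted p under 0.05 in limma, where 4% of all genes did. By edgeR and by DESeq2 the counts were also 0 and 1, against 0% and 4.36% of all genes in edgeR and 0% and 3.09% in DESeq2. The gene in limma, Slco1a5, an organic anion transporter gene named here after its value was seen, had a log2 difference of 1.24 (SE 0.50). Without Ctr library 1 the count was 0, and the differences of the 8 genes lay between -0.09 for Otx2 and 0.62 for Folr1, with 0.39 for Ttr, and by edgeR that of Ttr was 0.28. Without Ctr library 7 they lay between 0.15 for Otx2 and 1.82 for Ttr in limma. At an unadjusted p under 0.05, 4 of 10 meningeal, 2 of 5 blood and 1 of 8 endothelial markers were lower in Se_Ctr mice, and 1 of 12 thalamic and 1 of 8 endothelial ones were higher. Their part was not tested. The difference between the HD effects in the 2 diets was tested as an interaction. For the 8 genes it lay between -1.05 for Ttr (SE 1.65) and 0.16 for Otx2 (SE 0.99), and without Ctr library 1 between -0.43 for Folr1 and 0.20 for Otx2. For the other markers 0 of 49 passed at an adjusted and 0 at an unadjusted limma p, with 1 unadjusted in edgeR and in DESeq2, where limma called 0% and 4.77% of all genes, edgeR 0% and 5.24% and DESeq2 0.0561% and 4.32%. The median over the 49 was -0.11, and its sign turned with single mice: it was 0.02 without Ctr library 1, 0.04 without Se_HD library 6 and -0.37 without Ctr library 7. At an unadjusted p under 0.05, 2 of 10 meningeal markers were higher and 1 of 16 ependymal ones was lower in this term, and their part was not tested. An effect of HD that differed between the diets was thus not detectable in these genes at this spread.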

How the data were processed

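Total RNA of the hippocampus (90 ng per mouse) was sequenced as single-end reads of 75 bases. The authors trimmed reads (Trim Galore 0.4.2), aligned them to NCBIM37 (HISAT2 2.0.4), counted them per gene (featureCounts), dropped genes with a row sum under 10 and divided the counts by DESeq2 1.18.1 size factors. The deposited signal is thus a normalized count, and whole reads were recovered from it (100% of values within 0.001 of a whole number) over 21412 genes, 21326 of which had a symbol. No column was left unused.

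The 8 genes and all marker lists were chosen with earlier results of these data known. Named genes were the 8, the 10 most abundant other choroid plexus markers and any with an adjusted p under 0.05 (there were none), and the 15 genes most like and 5 least like the mean of the 8. Slc26a11, Bmp7 and Slc5a5, named for their r, and the markers at 0 in some library, Slco1a5 among them, fall outside this rule and were chosen after their values were seen. The log2 value of the normalized count plus 1 (pseudocount 1) was fitted with limma 3.58.1 (R 4.3.3), with intensity trend, on the 15 libraries of each diet (20031 and 19679 genes with a sum of at least 10), or on all 30 libraries (21383 genes) for Se_Ctr against Ctr and the interaction. P-values are two-sided, with Benjamini-Hochberg adjustment over all genes of a fit. Alternatives were edgeR 4.0.16 and DESeq2 1.42.0 on recovered reads, limma without trend, 1 fit of all libraries, other pseudocounts, filters and scalings, the library set or the mean of the 8 genes as covariate, and each mouse left out. Covariation used numpy 2.4.6 and scipy 1.17.1. The fits were tested on simulated data. Intervals cover counting error only, and the reads carry no molecular identifiers. Each mouse gave 1 library, from 5768208 to 11510521 reads on genes.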

Additional observations from a re-analysis of the deposited data

How the results depend on the processing

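The count of other choroid plexus markers at an adjusted p under 0.05 was 0 under all 192 combinations of comparison and setting. The count at an unadjusted p moved by over 1.5 times in 39 of 192, and ranged from 3 to 31 in HD, 0 to 14 in Se_HD, 0 to 12 in LD and 0 to 19 in Se_LD mice, where the 3 and the 19 came with the mean of the 8 genes as covariate. The median log2 difference in Se_LD mice, -0.08, was 0.34 by edgeR and ran from -0.39 to 0.30 with each mouse left out. For Se_Ctr against Ctr mice the median, 0.20, ran from 0.06 to 0.51 with each mouse left out. With the mean of the 8 genes as covariate this median was 0.18 in Se_HD (0.60 without it), 0.07 in HD (0.67), 0.08 in LD (0.30), 0.26 in Se_LD (-0.08) and -0.12 in Se_Ctr mice (0.20), and 0.09 for the interaction (-0.11). That mean follows the list at an r of 0.992, so a shift of the list with it is built into that setting and bears on no result. The cause of the other shifts was not tested. Of the log2 differences of the 8 genes, 1447 settings stayed within the spread between mice and 41 did not. The r between the 8 genes and the oligodendrocyte list, 0.516, was 0.363 on values not centred on groups, 0.419 without the 5 libraries lowest in Ttr (added after the data were seen), and between 0.382 and 0.589 with each mouse left out, lowest without Se_LD library 5. The labels give the groups no shared replicate numbers. With the library set as covariate, a block of 1 mouse per group, the adjusted counts were 0 and the unadjusted ones 16 in HD and 11 in Se_HD mice. Single reads limit the low end of Aqp1, Otx2 and Slc4a5.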

Other observations

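A few genes that are no choroid plexus markers had as wide a spread because of a few mice each. They were chosen after their values were seen. The widest within-group SD of all genes was that of Gh, growth hormone, at 3.01 on the log2 scale. In Ctr library 1, Gh had 3697 normalized counts, and 2 other genes known from the pituitary gland were highest there too: Prl, prolactin, had 647 against 16.2 in the next library, and Pomc, the precursor of ACTH, had 1966 against 14.2. Slc6a5, a glycine transporter gene of hindbrain neurons, had 367 in HD library 21 and 6.67 in the next library. Cbln3, known from cerebellar granule cells, had 327 in LD library 2 and 13.3 in the next. Pou4f1, known from the habenula, had 90.9 in LD library 8 and 70.2 in Se_LD library 29. The r of these genes with the mean of the 8 choroid plexus genes lay between -0.31 for Gh and 0.01 for Cbln3 over 30 libraries.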
